A study of Mus musculus with 20 samples.

Results

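RNA from the cecum of 20 C57BL/6 mice was examined for 9 genes of glucocorticoid response and steroid metabolism, and all 9 were found by symbol among the 19887 genes of the count table. They were the receptor genes Nr3c1 and Nr3c2, the target genes Fkbp5, Sgk1, Tsc22d3, and Zbtb16, the enzyme genes Hsd11b1 and Hsd11b2, and the nuclear receptor gene Nr5a2. All mice, those on 0% RPS included, first ate the Total Western Diet (TWD), a rodent diet modelled on human intake, for 6 weeks. For 3 more weeks, 5 mice remained on the TWD (0% RPS) and 5 mice each received the TWD with 2, 5, or 10% raw potato starch (RPS), of which a large part resists digestion in the small intestine. By the labels the mice were 3 weeks old when the TWD was begun. The mice of each diet are numbered 1 to 5 by mouse number.

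Corticosterone, the main glucocorticoid of the mouse, acts through a pair of related receptors, the glucocorticoid receptor (Nr3c1) and the mineralocorticoid receptor (Nr3c2), which move to the nucleus when hormone binds and switch target genes on or off. The hormone level inside a cell is set by the 11-beta-hydroxysteroid dehydrogenases, of which the type 2 enzyme (Hsd11b2) inactivates corticosterone and the type 1 enzyme (Hsd11b1) regenerates it from its inactive form. In the large intestine Hsd11b2 leaves the mineralocorticoid receptor free to respond to aldosterone, the hormone of sodium uptake, and Nr5a2 (LRH-1) is known as an activator of local glucocorticoid synthesis in the intestinal epithelium.

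The deposited values were raw read counts, with 14967798 to 42687283 counts in each mouse, and values per mouse are given as CPM, which are counts scaled to a common library size, after TMM scaling for library composition. Of the 19887 genes, 15348 had enough counts to be tested, and 9 of 9 members were among them. The test was edgeR's quasi-likelihood test in 1 model of the 4 diets, with p-values adjusted over all tested genes by the Benjamini-Hochberg method (BH), and a gene was called where its adjusted p was within 0.05 and it changed by 1.5-fold or more. No fold limit was set for the trend over the percentage of RPS or for the test of any difference. Intervals are 95% intervals of the log2 fold change. The tissue was whole cecum, so that fewer cells of a type and less RNA per cell cannot be told apart. Summed CPM of 10 epithelial markers (Epcam, Cdh1, Krt8, and others) was between 14751 and 22248 in each mouse. Summed CPM of 8 smooth muscle markers (Acta2, Myh11, Actg2, and others) was 2548 to 5861 with 0% RPS, 3378 to 5895 with 2% RPS, 4326 to 9990 with 5% RPS, and 4153 to 6962 with 10% RPS.

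Upstream sequences of the members were read from RefSeq (mouse build GRCm38.p6), in which 14 windows of 250 bases before a transcription start were found for 6 members (Sgk1, Tsc22d3, Nr5a2, Fkbp5, Hsd11b1, and Nr3c2), and were placed on GRCm39 by exact match. Hsd11b2 and Zbtb16 had no window. No window of Nr3c1 was searched, and whether RefSeq holds any for this gene was not examined. The windows were searched on both strands for the full palindromic glucocorticoid response element, which is AGAACA, 3 bases of any kind, and TGTTCT, for its single arm AGAACA, which is contained in it, and for the Nr5a2 site CAAGGTCA. The full element was found in 3 of the 32851 RefSeq windows of the same length (0.00913%), and 1 of these belonged to Sgk1. It lay 189 to 175 bases before the start of an Sgk1 transcript, in a window inside the Sgk1 gene that overlaps no annotated exon. A second Sgk1 window, before another start, held the Nr5a2 site on the opposite strand, 63 to 56 bases before the start, as did 1.33% of all windows. The first window of Nr5a2 held the single arm 29 to 24 bases before the start, as did 16.1% of all windows. The Nr5a2 site was also found in 1 more Sgk1 window, 103 to 96 bases before the start, and the single arm also in 2 more Sgk1 windows, the second Nr5a2 window, and 1 Tsc22d3 window. The windows printed here are 3 of the 8 with a match and are shown as examples, with the matched letters in capitals. The first of them also holds the single arm on the opposite strand, upstream of the full element. Binding was not measured.
Sgk1, chr10:21869539-21869788, plus strand, GRCm39: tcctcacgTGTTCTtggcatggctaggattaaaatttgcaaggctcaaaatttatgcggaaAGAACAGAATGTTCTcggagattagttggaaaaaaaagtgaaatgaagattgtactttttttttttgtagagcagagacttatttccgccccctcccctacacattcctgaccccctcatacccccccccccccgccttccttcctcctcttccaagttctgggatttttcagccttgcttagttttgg
Sgk1, chr10:21854321-21854570, plus strand, GRCm39: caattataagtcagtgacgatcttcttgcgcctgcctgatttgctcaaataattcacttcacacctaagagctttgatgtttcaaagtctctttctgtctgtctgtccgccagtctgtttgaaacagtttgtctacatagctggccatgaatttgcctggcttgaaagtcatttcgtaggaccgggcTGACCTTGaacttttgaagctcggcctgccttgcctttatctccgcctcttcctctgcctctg
Nr5a2, chr1:136888187-136888436, minus strand, GRCm39: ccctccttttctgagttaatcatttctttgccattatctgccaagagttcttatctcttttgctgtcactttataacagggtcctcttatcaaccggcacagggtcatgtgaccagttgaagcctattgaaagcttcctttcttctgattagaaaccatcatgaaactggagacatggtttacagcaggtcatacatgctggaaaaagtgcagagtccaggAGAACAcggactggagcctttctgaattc
None of the searched letters was found in the windows of Fkbp5, Hsd11b1, and Nr3c2, which says only that they are not in these windows. The counts are per gene, so transcripts from the different Sgk1 starts were not measured separately.

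Levels were first compared between the genes as RPKM, which is CPM divided by length in kilobases, using the union of all exons of a gene. Hsd11b2 was highest, with 188 ± 52.2 RPKM (SD over 20 mice), above 99.0% of the tested genes. Sgk1 followed with 84.8 ± 14.1 RPKM and Fkbp5 with 27.7 ± 6.44 RPKM, and the 20 mice of Hsd11b2, Sgk1, and Fkbp5 did not overlap. The mineralocorticoid receptor gene Nr3c2 (14.8 ± 2.12 RPKM) and the glucocorticoid receptor gene Nr3c1 (14.2 ± 1.39 RPKM) were alike within their spread, and Tsc22d3 had 11.1 ± 2.08 RPKM. Nr5a2 (2.72 ± 0.437 RPKM) and Zbtb16 (1.38 ± 0.706 RPKM) overlapped each other and lay near or below the middle of the tested genes. Hsd11b1, the regenerating enzyme, had 0.0731 ± 0.0374 RPKM, above only 2.87% of the tested genes, so that nearly all 11-beta-hydroxysteroid dehydrogenase RNA in this tissue was of the inactivating type. With coding length in place of the exon union, Sgk1 stood above Hsd11b2 and the order of Tsc22d3 and the receptors changed, and the 3 lowest genes kept their order.

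**Figure D1:**
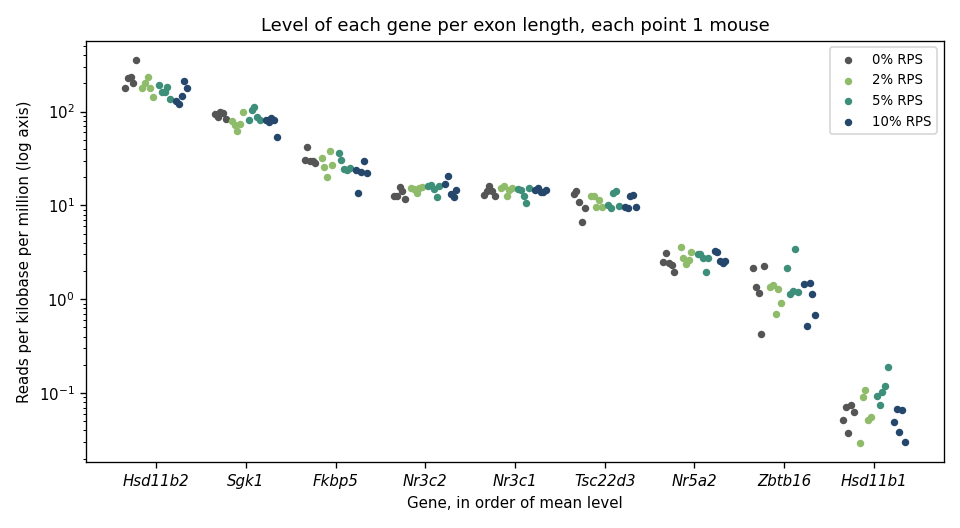
RPKM of each gene on a log axis, with each point 1 mouse colored by diet. Hsd11b2 lay above 121 RPKM in every mouse, and Hsd11b1 lay below 0.189 RPKM in every mouse.

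With 10% RPS, 0 of 9 members were called (edgeR's quasi-likelihood test), where 1.04% of all tested genes were called. Unadjusted, p was under 0.05 for 3 members, Hsd11b2, Fkbp5, and Sgk1, all lower with 10% RPS, compared with 9.75% of all tested genes lower at that p. The median log2 fold change of the 9 members was -0.25, compared with 0.0041 over all tested genes, with 6 lower and 3 higher. With 5% RPS, 0 of 9 were called, compared with 0.195% of all tested genes, and Hsd11b2 (lower) and Hsd11b1 (higher) had an unadjusted p under 0.05, which 13.3% of all tested genes had. With 2% RPS, 0 of 9 were called, compared with 0% of all tested genes, and 0 members had an unadjusted p under 0.05, compared with 5.77% of all tested genes. As a straight line over the percentage of RPS, 0 of 9 were called, compared with 1.11% of all tested genes, and Hsd11b2 and Fkbp5 had an unadjusted p under 0.05, compared with 18.8%. In the test of any difference among the 4 diets, 0 of 9 were called, compared with 0.0912%, and Hsd11b2 and Hsd11b1 had an unadjusted p under 0.05, compared with 11.1%. DESeq2's test called Hsd11b2 with 10% RPS and in the trend, and 0 members in the other comparisons. All comparisons with an RPS diet share the same 5 mice on 0% RPS.

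**Figure D2:**
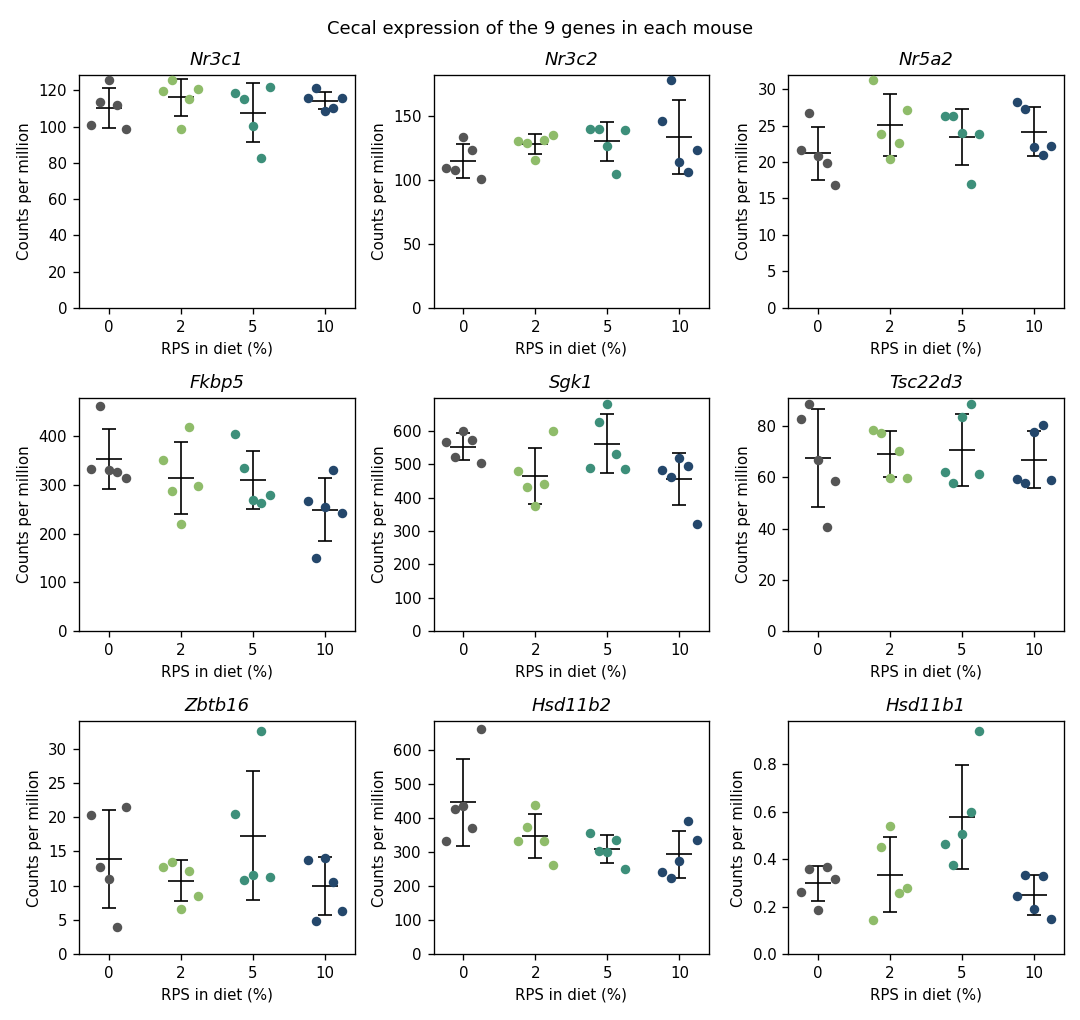
CPM of each gene (vertical axis, starting at 0) in each mouse by percentage of RPS, with points in order of mouse number, the horizontal bar at the mean of 5 mice, and whiskers of 1 SD. In all 9 panels the mice on 10% RPS overlap those on 0% RPS, and Hsd11b1 with 5% RPS (0.374 to 0.942 CPM) lies just above 0% RPS (0.188 to 0.369 CPM).

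The glucocorticoid receptor gene Nr3c1 (ENSMUSG00000024431, chromosome 18) was the steadiest of the 9. It had 101, 114, 126, 112, and 98.5 CPM in mice 1 to 5 on 0% RPS. On 2% RPS it had 119.8, 125, 98.8, 115, and 121 CPM, on 5% RPS 119, 115, 100.2, 82.7, and 122 CPM, and on 10% RPS 116, 121, 109, 110.5, and 116 CPM. The 4 diets overlapped throughout, and mouse 4 on 5% RPS was the lowest of all 20. The log2 fold change with 10% RPS was 0.05 (interval -0.15 to 0.25, edgeR BH-adjusted p = 0.805), so that a change of 1.5-fold in either direction lay outside the interval.

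Nr3c2 (ENSMUSG00000031618, chromosome 8 of GRCm39, 77625576 to 77971863), which encodes the mineralocorticoid receptor, had 109, 108, 133, 123, and 100.2 CPM on 0% RPS. It had 130.0, 128, 115, 131, and 135 CPM on 2% RPS, 139, 139.7, 127, 104, and 139 CPM on 5% RPS, and 146, 178, 114, 106, and 123 CPM on 10% RPS. All 3 RPS means (128 ± 7.46, 129.8 ± 15.3, and 133 ± 29.1 CPM, SD, n = 5) were above the 115 ± 13.2 CPM of 0% RPS, but every diet overlapped it, and mouse 2 on 10% RPS stood highest. The log2 fold change was 0.16, 0.18, and 0.22 with 2, 5, and 10% RPS, and that with 10% RPS had an interval of -0.03 to 0.47 (edgeR BH-adjusted p = 0.320) and was 0.092 without mouse 2 on 10% RPS. Per exon length, the ratio of Nr3c2 to Nr3c1 was 0.875 to 1.01 in mice on 0% RPS, 0.943 to 1.07 on 2%, 1.05 to 1.16 on 5%, and 0.881 to 1.35 on 10% RPS. Of 3 such ratios formed between members, this one and that of Hsd11b2 to Hsd11b1 (716 to 2185 on 5% RPS and 2709 to 6269 on 0% RPS, at low counts of Hsd11b1) did not overlap between 5 and 0% RPS. The share of all gene pairs that do so was not computed, and the ratios are a description without a test.

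Fkbp5 (ENSMUSG00000024222, chromosome 17, 28618058 to 28737521) encodes a co-chaperone that is induced by glucocorticoids and lowers the hormone affinity of their receptor. It had 334, 463, 331, 328, and 314 CPM on 0% RPS and 267, 150.2, 254, 331, and 243 CPM on 10% RPS. Of the mice on 10% RPS, 4 were below every mouse on 0% RPS, and mouse 4 was level with mouse 3 on 0% RPS. Fkbp5 had 351, 287, 220.4, 419, and 297 CPM on 2% RPS and 404, 335, 269, 264, and 279 CPM on 5% RPS, so that the mice on both diets were spread from inside the range of 0% RPS to below it. The log2 fold change was -0.17 and -0.19 with 2 and 5% RPS and -0.51 with 10% RPS (1.42-fold lower, interval -0.90 to -0.12, edgeR BH-adjusted p = 0.147). The trend was -0.047 log2 units for each percentage point of RPS (edgeR BH-adjusted p = 0.146). Smooth muscle markers were higher with 10% RPS in 8 of 8 genes by the estimate, and with their mean log2 level as a covariate the difference of Fkbp5 was -0.15 (edgeR BH-adjusted p = 0.665). The part of muscle in the result was not tested further. Without mouse 2 on 10% RPS the log2 fold change was -0.37, and without mouse 4 on 10% RPS it was -0.62. The value with 2% RPS was -0.05 without mouse 2 on 0% RPS and -0.29 when mouse 4 on 2% RPS was left out.

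Sgk1 (ENSMUSG00000019970, chromosome 10, 21758083 to 21875802), a kinase that holds sodium channels at the cell surface and is a target of both receptors, had 566, 521, 602, 575, and 505 CPM on 0% RPS. It had 485, 464, 518, 495, and 320.2 CPM on 10% RPS, where mouse 5 stood far below the others and only mouse 3 was above the lowest mouse on 0% RPS. On 2% RPS it had 482, 433, 375, 440.0, and 600.2 CPM, and on 5% RPS 490.2, 627, 681, 530.0, and 486 CPM. The order of the diets did not follow the percentage of RPS, since 5% RPS (563 ± 87.2 CPM, SD, n = 5) lay beside 0% RPS (554 ± 39.7 CPM) while 2% RPS (466 ± 84.0 CPM) lay beside 10% RPS (456 ± 78.6 CPM). With 10% RPS the log2 fold change was -0.28 (interval -0.56 to -0.0012, edgeR BH-adjusted p = 0.255), and without mouse 5 on 10% RPS it was -0.17.

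Tsc22d3 (ENSMUSG00000031431, chromosome X, 139440091 to 139501408), which encodes the anti-inflammatory protein GILZ and is among the most widely induced glucocorticoid targets, had 82.7, 88.4, 66.7, 40.7, and 58.5 CPM on 0% RPS. It had 59.5, 57.7, 77.7, 80.5, and 58.9 CPM on 10% RPS, all within the range of 0% RPS. On 2% RPS it was between 59.7 and 78.3 CPM and on 5% RPS between 57.9 and 88.6 CPM. The log2 fold changes were 0.03, 0.07, and -0.01 with 2, 5, and 10% RPS, and the last had an interval of -0.38 to 0.35 (edgeR BH-adjusted p = 0.984).

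Zbtb16 (ENSMUSG00000066687, chromosome 9, 48563141 to 48748664) encodes a zinc finger transcription factor (PLZF) strongly induced by glucocorticoids in many tissues. It varied most of all members, by 8.08-fold between the lowest and the highest mouse. It had 20.3, 12.7, 11.03, 4.03, and 21.4 CPM on 0% RPS and thus varied by several fold on this diet alone. It had 12.7, 13.5, 6.56, 12.2, and 8.52 CPM on 2% RPS, 20.4, 10.8, 11.5, 32.6, and 11.3 CPM on 5% RPS, and 13.8, 4.88, 14.1, 10.6, and 6.38 CPM on 10% RPS. The log2 fold change with 10% RPS was -0.48 with a wide interval of -1.35 to 0.38 (edgeR BH-adjusted p = 0.549), so that changes of more than 2-fold downward were inside it, and without mouse 5 on 0% RPS it was -0.26. Mouse 4 on 0% RPS was lowest of all 20 in Tsc22d3 and Zbtb16, and mouse 4 on 5% RPS was highest of all 20 in both. That mouse on 5% RPS also had the highest share of mitochondrial counts, 15.4%, and the highest sum of smooth muscle markers, 9990 CPM, and their part in its values was not tested.

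Hsd11b2 (ENSMUSG00000031891, chromosome 8, 106245369 to 106250620) was the member nearest to the threshold. It had 334, 427, 437, 372, and 664 CPM on 0% RPS. It had 332, 374, 438, 334, and 263 CPM on 2% RPS, 356, 304, 299.6, 337, and 251 CPM on 5% RPS, and 241, 226, 275, 391, and 336 CPM on 10% RPS. The mean fell in the order of the diets, from 447 ± 128 CPM with 0% RPS to 348 ± 64.0, 309.6 ± 40.2, and 294 ± 68.9 CPM (SD, n = 5). Mouse 5 on 0% RPS stood high, and on 10% RPS mice 4 and 5 overlapped the mice on 0% RPS. Within 0% RPS, mouse 5 also had the highest share of mitochondrial counts, 13.0%, and the highest level of smooth muscle markers. Their part in its Hsd11b2 value was not tested.

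The log2 fold change of Hsd11b2 was -0.36 with 2% RPS (interval -0.73 to 0.01), -0.53 with 5% RPS (interval -0.90 to -0.16), and -0.61 with 10% RPS (interval -0.98 to -0.23), the last being 1.52-fold lower. The BH-adjusted p by edgeR was 0.862, 0.171, and 0.0763 in that order, and 0.0980 for the trend of -0.055 log2 units per percentage point of RPS. With DESeq2's test in place of edgeR the adjusted p was 0.0234 with 10% RPS, where DESeq2 called 2.46% of genes, and 0.0414 in the trend, where it called 4.84%. Without mouse 4 on 10% RPS, edgeR called Hsd11b2 with 10% RPS (log2 fold change -0.73, BH-adjusted p = 0.0339), as it did 1.97% of tested genes, and in the trend (BH-adjusted p = 0.0332), as it did 3.66%. With the rank of the diet in place of the percentage it was also called in the trend, with 3.51% of tested genes. Without mouse 5 on 0% RPS the log2 fold changes with 2, 5, and 10% RPS were -0.16, -0.34, and -0.41 (edgeR BH-adjusted p = 0.839, 0.326, and 0.198). With the smooth muscle level as a covariate it was -0.59 and with the epithelial level as a covariate it was -0.56 (edgeR BH-adjusted p = 0.182 and 0.264).

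Hsd11b1 (ENSMUSG00000016194, chromosome 1, 192903918 to 192946489) had only 212 counts in the 20 mice together. It had 8, 9, 5, 11, and 11 counts on 0% RPS, 3, 13, 18, 8, and 12 on 2% RPS, 17, 13, 8, 19, and 20 on 5% RPS, and 7, 13, 6, 7, and 4 on 10% RPS. Scaled to library size, each mouse on 5% RPS (0.374 to 0.942 CPM) was above each mouse on 0% RPS (0.188 to 0.369 CPM), by a margin smaller than 1 count between the nearest mice, where 1.53% of tested genes were higher in every mouse. The other diets overlapped 0% RPS. With 5% RPS the log2 fold change was 0.92 (1.90-fold higher, interval 0.20 to 1.65, edgeR BH-adjusted p = 0.230), and with 10% RPS it was -0.25 (interval -1.02 to 0.52). Leaving out 1 mouse moved the latter from -0.40 (mouse 2 on 10% RPS) to -0.12 (mouse 5 on 10% RPS). A count of 3, the smallest level taken as detected, was 0.0698 to 0.190 CPM in these libraries, so that several mice lay within a few counts of it.

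Nr5a2 (ENSMUSG00000026398, chromosome 1, 136770303 to 136888186) had 21.7, 26.8, 20.8, 19.9, and 16.8 CPM on 0% RPS. On 2% RPS it had 31.2, 23.9, 20.4, 22.6, and 27.2 CPM, on 5% RPS 26.3, 26.3, 23.9, 17.0, and 23.8 CPM, and on 10% RPS 28.3, 27.3, 22.1, 20.9, and 22.2 CPM. The diets overlapped, with mouse 4 on 5% RPS far below its group. The log2 fold changes of 0.24, 0.15, and 0.19 with 2, 5, and 10% RPS did not differ beyond the spread between mice, and the interval with 10% RPS was -0.10 to 0.49 (edgeR BH-adjusted p = 0.476). Leaving out 1 mouse moved the value with 5% RPS from 0.081 (mouse 5 on 0% RPS) to 0.25 (mouse 2 on 0% RPS), that with 2% RPS to 0.15 (mouse 1 on 2% RPS), and that with 10% RPS to 0.29 (mouse 2 on 0% RPS).

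**Figure D3:**
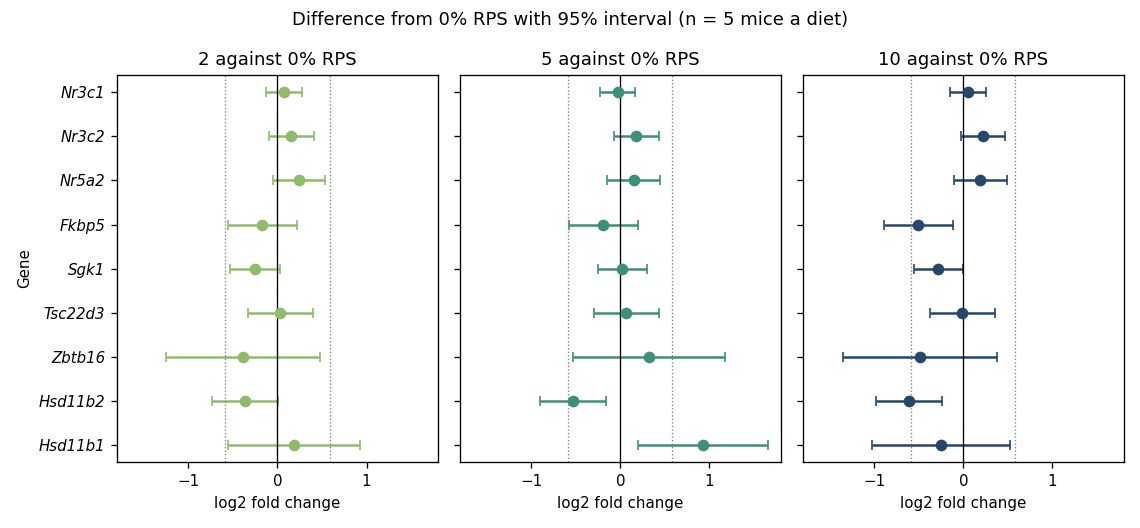
Log2 fold change of each gene (horizontal axis) for 2, 5, and 10% against 0% RPS, with 95% intervals and dotted lines at a fold change of 1.5. With 10% RPS the intervals of Hsd11b2 (-0.98 to -0.23), Fkbp5 (-0.90 to -0.12), and Sgk1 (-0.56 to -0.0012) lie wholly below 0.

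The members were then compared with each other over the 20 mice, after the mean of each diet was removed from the log2 CPM, so that the diets themselves did not enter. Of the 36 pairs, 1 passed Benjamini-Hochberg adjustment over the pairs. Nr3c1 and Nr3c2 rose and fell together (Pearson r = 0.72, two-sided permutation p = 3e-05, adjusted p = 0.00108, Spearman rho = 0.75, permutation p = 0.00011). Without the 2 mice farthest from the median of Nr3c1, r was 0.62. The pairs that follow did not pass with the diet means alone removed. Both receptors had a positive r with Nr5a2, 0.67 for Nr3c1 and 0.62 for Nr3c2 (permutation, adjusted p = 0.0606 for both). For Nr3c1 it was 0.45 without the 2 farthest mice. Hsd11b2 ran opposite to Nr3c2 (r = -0.61, permutation, adjusted p = 0.0798) and to Nr5a2 (r = -0.56, permutation, adjusted p = 0.106). Among the targets, Tsc22d3 ran with Zbtb16 (r = 0.66, permutation, adjusted p = 0.0798), and r was 0.43 without the 2 farthest mice. With the smooth muscle level also removed, 7 pairs had a permutation adjusted p within 0.05, those named above and Fkbp5 with Zbtb16 (r = 0.71). With the diet means alone removed, Nr3c2 had r = -0.50 with Tsc22d3 and with Zbtb16 (permutation, adjusted p = 0.158 and 0.192). Depth, tissue makeup, and scaling are shared by all genes of a mouse and can move pairs of genes together.

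**Figure D4:**
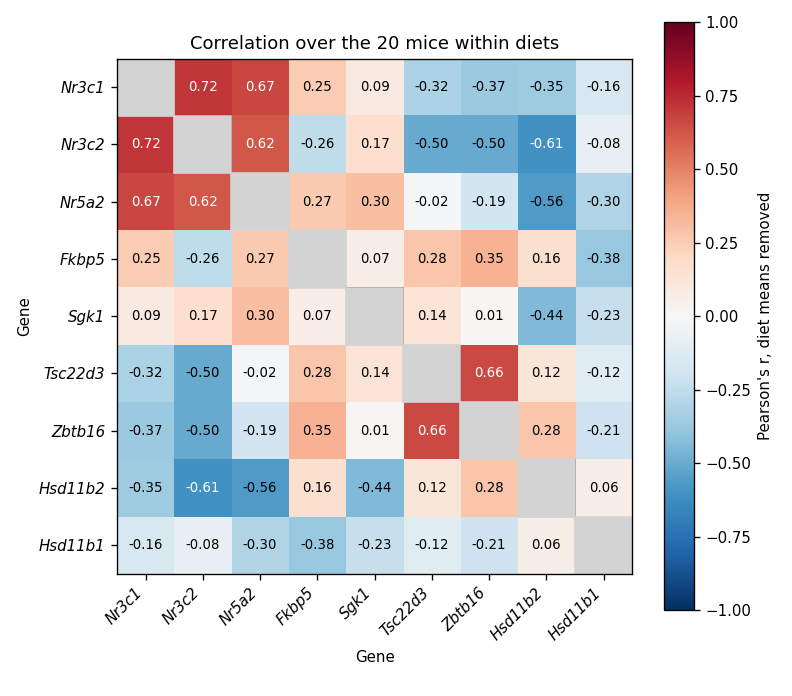
Pearson's r between the 9 genes over 20 mice after the mean of each diet was removed, with red for genes that ran together and blue for genes that ran opposite. Nr3c1, Nr3c2, and Nr5a2 have r of 0.62 to 0.72 with each other, and Hsd11b2 has r of -0.56 and -0.61 with Nr5a2 and Nr3c2.

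The genes most like each member over the 20 mice, as ranked by Pearson's r of log2 CPM among all tested genes, are given as a description. Diet means were not removed here, so a difference between diets that 2 genes share enters their r. For Fkbp5 they were Tfcp2l1 (r = 0.88), Ap1s3 (r = 0.85), and Scnn1g (r = 0.81), the last of which encodes the gamma subunit of the epithelial sodium channel. For Zbtb16 they were Klf15 (r = 0.80), P4ha2, and Fam107a, and for Tsc22d3 they were Nf1 (r = 0.82), Ddit4, and Arrdc2 (both r = 0.76). For Hsd11b2 they were Gstm1 (r = 0.92), Slc25a22, and Ramp1, for Nr3c1 Brwd3 (r = 0.92), Ngly1, and Cipc, and for Nr3c2 Ccdc68 (r = 0.88), Myo6, and Mtmr4. For Sgk1 they were Kifap3 (r = 0.74), Tspan3, and Vkorc1, for Nr5a2 Ube4a (r = 0.89), Zbtb33, and Hltf, and for Hsd11b1, at its low counts, Galm (r = 0.82), Aspn, and Aqp12. Of these genes, Ddit4 and Scnn1g are also in the lists of related genes described next.

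Of 22 other genes known to be induced by glucocorticoids, all of them tested, 3 were downregulated with 10% RPS and 0 were upregulated, where 0.495% of all tested genes were called down. They were Cdkn1a, Mt1, and Pdk4. The list, like those below, was chosen with earlier results of these data known, so the shares beside it are a description. Unadjusted, p was under 0.05 for 7 of the 22, all lower, compared with 9.75% of all tested genes, and 17 of the 22 were lower by the estimate, with a median log2 fold change of -0.15 compared with 0.0041 over all tested genes. Cdkn1a, the cell cycle inhibitor p21, had 580, 486, 530.3, 531, and 686 CPM on 0% RPS and 311, 332, 274, 453, and 386 CPM on 10% RPS, with every mouse on 10% RPS lower. Its log2 fold change was -0.68 (SE 0.13, edgeR BH-adjusted p = 0.0251). Mt1, a metal-binding metallothionein, fell from 49.8 ± 13.8 to 25.4 ± 6.46 CPM (SD, n = 5; log2 fold change -0.97, SE 0.21, edgeR BH-adjusted p = 0.0276), and Pdk4, a kinase that limits glucose oxidation, fell from 130.5 ± 33.0 to 45.9 ± 13.1 CPM (log2 fold change -1.51, SE 0.34, edgeR BH-adjusted p = 0.0316). In both, every mouse on 10% RPS was below every mouse on 0% RPS, as for Cdkn1a, where 3.2% of tested genes were lower in every mouse.

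Errfi1, an inhibitor of the epidermal growth factor receptor, joined these 3 in the linear trend (edgeR BH-adjusted p = 0.0460), in which 4 of 22 were called down, compared with 0.730% of tested genes. With 5% RPS, 0 of the 22 were called, compared with 0.195% of all tested genes, and 19 were lower by the estimate. With 2% RPS, 0 were called, compared with 0% of all tested genes, and 16 were lower. The call with 10% RPS was lost for Cdkn1a in 4 of the 10 fits that left out 1 mouse (mouse 5 on 0% RPS and mice 1, 2, and 3 on 10% RPS). It was lost for Mt1 and for Pdk4 in 8 of 10, in all but those that left out mouse 2 of the 0% RPS group or mouse 4 of the 10% RPS group. With the smooth muscle level as a covariate the log2 fold changes were -0.57 for Cdkn1a, -0.96 for Mt1, and -0.97 for Pdk4, none of them called. With the epithelial level as a covariate they were -0.53, -0.78, and -1.44, again none of them called (edgeR BH-adjusted p = 0.102, 0.138, and 0.120). Mt1 was also not called in a fit of only these 2 diets (edgeR BH-adjusted p = 0.0557). In the trend, the call was lost without 1 mouse in 6 of 20 fits for Cdkn1a (mice 1, 3, 4, and 5 on 0% RPS and mice 1 and 3 on 10% RPS), 12 of 20 for Errfi1, 14 of 20 for Pdk4, and 15 of 20 for Mt1. For Errfi1, Pdk4, and Mt1 these included mice 1, 3, 4, and 5 on 0% RPS and mice 1, 2, 3, and 5 on 10% RPS. With either covariate 0 of these 4 were called in the trend. The trends of Cdkn1a, Mt1, and Pdk4 were -0.063, -0.085, and -0.143 log2 units per percentage point of RPS. They were -0.052, -0.082, and -0.079 with the smooth muscle covariate and -0.047, -0.065, and -0.132 with the epithelial covariate. Mt1 was also not called in the trend with DESeq2 size factors (edgeR BH-adjusted p = 0.0503). Without the filter on low counts Errfi1, Pdk4, and Mt1 were not called in the trend. With 1 surrogate variable as a covariate Mt1 and Pdk4 were not called in the trend (edgeR BH-adjusted p = 0.0588 and 0.0554). The direction was the same in all these fits.

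**Figure D5:**
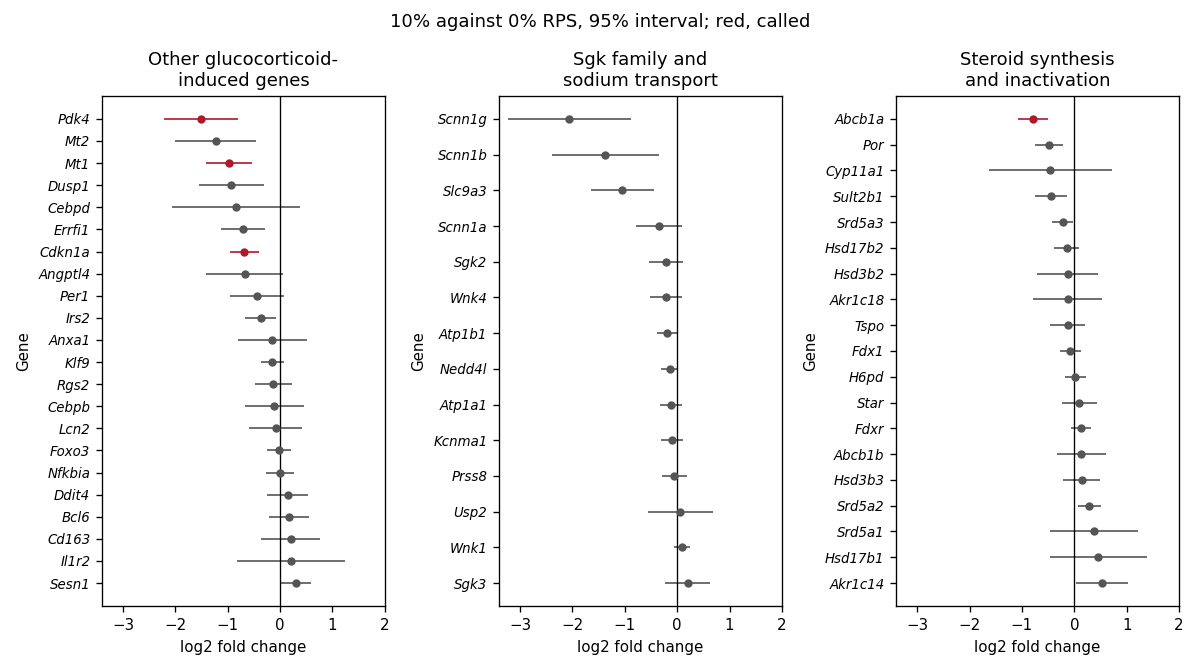
Log2 fold change (horizontal axis) of related genes with 10% against 0% RPS, with 95% intervals, in 3 lists, with the called genes in red. The called genes are Pdk4, Mt1, and Cdkn1a at left, 0 genes in the middle, and Abcb1a at right.

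Relatives of Sgk1 and genes of aldosterone-responsive sodium transport were examined in a list of 15 genes, of which 14 were tested. With 10% RPS, 0 of them were called (edgeR's quasi-likelihood test), compared with 1.04% of all tested genes. Unadjusted, p was under 0.05 for 3, all lower, compared with 9.75% of all tested genes, and 11 of 14 were lower by the estimate. Scnn1g had 3.39, 4.46, 2.78, 1.51, and 3.93 CPM on 0% RPS and 0.697, 0.155, 0.790, 1.88, and 0.450 CPM on 10% RPS, with only mouse 4 on 10% RPS inside the range of 0% RPS. Its log2 fold change was -2.06 (SE 0.57, interval -3.24 to -0.88, edgeR BH-adjusted p = 0.0644), from 6 to 137 counts per mouse. Slc9a3, which encodes the sodium-hydrogen exchanger NHE3 of the epithelial surface, had 391 ± 70.5 CPM with 0% RPS and 189 ± 88.6 CPM with 10% RPS (SD, n = 5; log2 fold change -1.05, SE 0.29, edgeR BH-adjusted p = 0.0671). Without mouse 4 on 10% RPS both were called, Scnn1g at -2.62 (edgeR BH-adjusted p = 0.0190) and Slc9a3 at -1.31 (edgeR BH-adjusted p = 0.0177), where 1.97% of tested genes were called. Without mouse 2 on 10% RPS they were -1.77 and -0.88, and over all fits without 1 mouse the edgeR BH-adjusted p reached 0.168 for Scnn1g and 0.185 for Slc9a3. With the smooth muscle level as a covariate Slc9a3 was -0.62. DESeq2 also called both (adjusted p = 0.0066), where it called 2.46% of genes.

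Of 31 genes of steroid synthesis, transport, and inactivation, 24 were analysed and 19 were tested, and 1, Abcb1a, was called, lower with 10% RPS, where 0.495% of all tested genes were called down. Abcb1a encodes P-glycoprotein, a membrane pump that exports corticosterone among other substrates. It had 911, 910.1, 1201, 990.1, and 977 CPM on 0% RPS, and every mouse on each RPS diet was lower (as were 0.671% of tested genes with 2%, 2.04% with 5%, and 3.2% with 10% RPS), with 613 to 831 CPM on 2%, 532 to 845 CPM on 5%, and 451 to 710.0 CPM on 10% RPS. The log2 fold change was -0.78 with 10% RPS (SE 0.14, edgeR BH-adjusted p = 0.0111) and -0.65 with 5% RPS (SE 0.14, edgeR BH-adjusted p = 0.0434). The call with 10% RPS was lost without mouse 3 on 10% RPS (log2 fold change -0.70, edgeR BH-adjusted p = 0.0529), and that with 5% RPS was lost in 9 of 10 fits without 1 mouse, all but that without mouse 1 on 5% RPS. With the smooth muscle level as a covariate the value with 10% RPS was -0.56, and with the epithelial level it was -0.68 (edgeR BH-adjusted p = 0.0603), neither of them called. The call with 5% RPS was lost with the smooth muscle covariate (log2 fold change -0.37) and with the epithelial covariate (-0.55). It was also lost in a fit of only these 2 diets (-0.65, edgeR BH-adjusted p = 0.0537).

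Among 18 chaperones and coregulators of steroid receptors, 0 were called with 10% RPS (edgeR's quasi-likelihood test), compared with 1.04% of all tested genes. Fkbp4, a partner of Hsp90 in the receptor complex, was the 1 gene of the 18 with an unadjusted p under 0.05, which 9.75% of all tested genes had in the same direction (log2 fold change -0.32, edgeR BH-adjusted p = 0.239). Hspa4 followed with -0.16. Of 14 clock genes, which are known to take timing cues from glucocorticoids, 1 was called, compared with 1.04% of all tested genes. Cry1, a repressor in the clock loop, had 48.7 ± 14.4 CPM with 0% RPS and 29.3 ± 4.76 CPM with 10% RPS (SD, n = 5; log2 fold change -0.74, SE 0.19, edgeR BH-adjusted p = 0.0487), and the call was lost in 8 of 10 fits without 1 mouse, again all but those without mouse 2 on 0% or mouse 4 on 10% RPS, and with either covariate.

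Markers of the other cells of the cecal wall were examined beside these results. With 10% RPS, 2 of 8 smooth muscle markers were called, compared with 1.04% of all tested genes, both higher, namely Actg2 (log2 fold change 1.28, edgeR BH-adjusted p = 0.0358) and Synpo2 (0.88, edgeR BH-adjusted p = 0.0411), and all 8 were higher by the estimate, with a median of 0.69. The call was lost without 1 mouse in 7 of 10 fits for Actg2 (all but those without mouse 1 or 2 on 0% RPS or mouse 4 on 10% RPS) and in 9 of 10 for Synpo2 (all but that without mouse 4 on 10% RPS). Of 10 epithelial markers, 0 were called and 9 were lower by the estimate, with a median of -0.16 and the smallest p for Cdh1 (-0.22) and Krt19 (-0.31). By edgeR, 0 genes were called among 6 fibroblast, 6 adipocyte, 7 B cell, 7 T cell, 6 macrophage, 5 endothelial, and 6 enteric neuron and glia markers, with medians of 0.34, -0.84, 2.03, 0.41, 0.28, -0.17, and -0.32. Those with the smallest p in each list were Col3a1 (0.58) and Col1a1 (0.68), Cidec (-0.97) and Retn (-1.36), Cr2 (2.32) and Cd79b (1.84), Cd247 (1.02) and Cd4 (0.79), Csf1r (0.54) and Mrc1 (0.32), Kdr (-0.33) and Pecam1 (0.21), and Uchl1 (-0.34), as log2 fold changes. Without mouse 2 on 0% RPS, Cr2 was 4.01, Cd79b 3.63, Cd4 1.21, and Csf1r 0.87, the last of them called (edgeR BH-adjusted p = 0.0459). Cidec was called without mouse 4 on 10% RPS (-1.37, edgeR BH-adjusted p = 0.0059) and by DESeq2 (adjusted p = 0.0142). Retn turned to 0.23 without mouse 1 on 0% RPS. It was -3.09 when mouse 4 on 10% RPS was left out, and Uchl1 was -0.15 without mouse 5 on 0% RPS. The part of these cells in the results of the 9 genes was not tested beyond the covariate fits given above.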

How the data were processed

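Libraries of poly(A) RNA from cecum were made with a stranded kit and read as single ends of 50 bases. The authors trimmed at Q30 and discarded reads with ambiguous bases above a set number. They used the CLC Genomics Workbench with the mouse genome GRCm39 and deposited raw counts per gene, without normalization. The annotation, the strand setting, and the treatment of multi-mapped reads in counting are not given in the sources used here. Gene identifiers were matched to GENCODE mouse release 39 (19827 of 19887 found).

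The members, the gene lists, and the tests were chosen with earlier results of these data known. The counts were fitted by edgeR 4.0.16 in R 4.3.3 (TMM scaling, robust quasi-likelihood), after filterByExpr by diet (min.count 10, min.total.count 15). DESeq2 1.42.0 and sva 3.50.0 served the alternatives. Log2 CPM had a prior count of 2. Correlations were tested by 100000 permutations in numpy 2.4.6, with 1e-05 as the smallest p they can give. Ranks and the BH adjustment of the pairs came from scipy 1.17.1. In counts simulated for 10 against 0% RPS over 15348 genes, edgeR found 78 of 100 with a true change of 2-fold and 95 of 100 at 4-fold. The genes named beside the members were those called in each list (a diet against 0% RPS, or the trend), otherwise the 2 with the smallest p with 10% RPS, and the 3 most like each member. Of the genes so named, 1 is not reported here. Replicates are separate mice. Limits set by counts cover counting error only.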

Additional observations from a re-analysis of the deposited data

Results flagged for a closer look

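In 3 of the 36 groups of 5 mice (9 genes on 4 diets), 1 mouse stood apart from the other 4 by Dixon's test at the 95% level. About 1 group in 20 is marked in this way by chance. Fkbp5 was 463 CPM in mouse 2 on 0% RPS, against 314 to 334 CPM in the other mice of that diet, and without this mouse the log2 fold change of Fkbp5 with 5% RPS was -0.07 in place of -0.19. Sgk1 was 320 CPM in mouse 5 on 10% RPS, against 464 to 518 CPM in the other mice of that diet. Nr5a2 was 17.0 CPM in mouse 4 on 5% RPS, against 23.8 to 26.3 CPM in the other mice of that diet, and Nr3c1 was also lowest in this mouse.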

How the results depend on the processing

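No paired analysis was possible because no mouse number of the labels occurs on more than 1 diet. Over 1075 alternative fits of 45 member estimates, 1032 kept direction and side of the threshold, and 38 changed sign. The other 5 gained a call, all of Hsd11b2 (by DESeq2, by rank of diet, and without mouse 4 on 10% RPS). The tests of any difference among the diets have no direction, so they count here by side of the threshold alone. Without a fold limit the estimate is the main one, so its sign could not change. The causes were not tested. Members called with 10% RPS and in the trend numbered 1 by DESeq2, and 1 in the trend by rank, and 0 to 1 without 1 mouse. With the smooth muscle covariate the sign turned for 5% RPS in Nr3c1 (0.11), Fkbp5 (0.24), Sgk1 (-0.054), and Zbtb16 (-0.17) and for 2% RPS in Fkbp5 (0.014). With the epithelial covariate it turned for 5% RPS in Tsc22d3 (-0.020) and Sgk1 (-0.0030), and by rank in the trends of Tsc22d3 (2.65e-05) and Hsd11b1 (0.035). Without 1 mouse, Nr3c1 was -0.079 to 0.048 with 5% RPS and -0.00053 to 0.0055 in the trend, and Sgk1 was -0.052 to 0.073 and Zbtb16 -0.044 to 0.54 with 5% RPS. Tsc22d3 was -0.14 to 0.11 with 10%, -0.064 to 0.19 with 5%, and -0.098 to 0.15 with 2% RPS, and -0.011 to 0.0059 in the trend. Hsd11b1 was -0.053 to 0.35 with 2% RPS and -0.027 to 0.0075 in the trend, and Retn was -3.09 to 0.23 with 10% RPS.

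Genes called with 10% RPS numbered 160, and 368 by DESeq2, 0 with the smooth muscle and 8 with the epithelial covariate, 86 with only these 2 diets, 285 without a fold limit, 0 when tested against a fold of 1.5, and 11 to 343 when 1 mouse was left out (mouse 3 on 10% RPS for the fewest, mouse 2 on 0% RPS for the most). With 5% RPS they numbered 30, and 241 by DESeq2, 0 and 2 with the covariates, 59 with only these 2 diets, 0 against a fold of 1.5, and 0 to 112 when 1 was left out (mice 5 and 1 on 5% RPS). With 2% RPS, DESeq2 called 5. The trend called 58 genes up and 112 down, and by DESeq2 293 up and 413 down, unfiltered 37 up and 66 down, by rank 203 up and 336 down, and with either covariate 0 up and 0 down. With 1 surrogate variable it called 35 up. Leaving out 1 mouse gave 0 to 379 up (the highest for mouse 3 on 2% RPS) and 0 to 321 down (lowest for mouse 1 and highest for mouse 4, both on 10% RPS). The test of any diet called 14, and 473 by DESeq2, 0 and 0 with the covariates, and 3 to 105 when 1 was left out (mouse 1 on 0% RPS and mouse 4 on 10% RPS). Cell type markers called with 10% RPS numbered 2, and 4 by DESeq2, 1 unfiltered, 1 with 1 surrogate variable, 0 and 0 with the covariates, 1 with only these 2 diets, 0 against a fold of 1.5, and 0 to 4 without 1 mouse. With smooth muscle regressed out 7 member pairs passed, and by coding length 5 of 9 members kept their rank. Depth limits Hsd11b1 most, with 3 to 20 counts per mouse.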
